A study of Mus musculus with 2 samples.

Results

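The 6 genes *Grin1*, *Grin2a*, *Grin2b*, *Grin2c*, *Grin2d* and *Grin3a*, which encode subunits of the NMDA receptor, were taken by symbol from the 32285 genes counted, and each symbol matched 1 gene. Their transcripts were followed by single-nucleus RNA sequencing in the hippocampus of PS19 mice (PS19+/- Zbp1+/+) and of PZKO mice (PS19+/- Zbp1-/-). Every animal carried the PS19 transgene, human tau with the P301S mutation under the Prnp promoter, so no group without tauopathy was included, and both groups were males aged 9 months. Each genotype was represented by 1 library pooled from 5 mice, although the labels also describe separate processing of each animal, and the counts do not tell the animals apart. No test between genotypes was therefore possible, genotype and library cannot be told apart, and the intervals given below are 95% intervals of counting error only.

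NMDA receptors are glutamate-gated cation channels that need glutamate, glycine or D-serine, and depolarization to open fully. Every receptor contains GluN1, and the GluN2 partner sets the kinetics, the magnesium block and the anchoring at the synapse, with GluN2B prominent early in life and GluN2A gaining ground as forebrain circuits mature. GluN3A binds glycine, lowers calcium permeability and is best known from immature synapses.

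The PS19 library held 11469 nuclei with 116488513 unique molecular identifiers (UMIs, each standing for 1 counted transcript) and the PZKO library 10920 nuclei with 171167884 UMIs. After filtering and removal of likely doublets, 9590 and 9307 nuclei were kept, with medians of 5849.5 and 9015 UMIs. A total of 47 cell barcodes occurred in both libraries, which concerned 76 of the nuclei kept. Zbp1, the deleted gene, had 92 UMIs in the PS19 library and 38 in the PZKO library, 47 and 20 of them in microglia, so it was lower but not absent in the library labelled PZKO. Clusters were named from marker genes into excitatory neurons (2654 PS19 and 2855 PZKO nuclei), inhibitory neurons (529 and 609), astrocytes (1083 and 1166), oligodendrocytes (2576 and 2255), oligodendrocyte progenitor cells (OPCs, 213 and 212), microglia (949 and 761) and smaller vascular, choroid and ependymal classes. Excitatory neurons and interneurons were split further into subtypes called "-like". The thalamic-like subtype (58 and 72 nuclei) had too few markers of the excitatory class to be counted in it. It is left out of the 6 excitatory subtypes below but is among the 10 neuron subtypes. The 6 are the dentate granule-, CA1- and CA3-like subtypes and the upper- and deep-layer cortical-like subtypes. Dentate granule-like neurons made up 38.0% of excitatory nuclei in PS19 (1009 nuclei) and 18.0% in PZKO (513 nuclei). In such data fewer nuclei of a type and less RNA per nucleus cannot be told apart in a sum over types, and values are therefore given within types.

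Levels are counts per 1000000 UMIs of a class in 1 library (CPM). Nuclear RNA is largely unspliced, and long genes gather more UMIs per transcript, so which of several genes is higher is read per kilobase of gene span. Shares and ratios of the UMIs of different genes are given to compare the same quantity between subtypes and libraries. In the GENCODE M21 annotation of GRCm38 (mm10) all 6 genes are protein-coding and on the minus strand. *Grin1* (ENSMUSG00000026959) lies at chr2:25291181-25319187, *Grin2a* (ENSMUSG00000059003) at chr16:9567898-9995560, *Grin2b* (ENSMUSG00000030209) at chr6:135713233-136173511, *Grin2c* (ENSMUSG00000020734) at chr11:115249169-115267243, *Grin2d* (ENSMUSG00000002771) at chr7:45831883-45878378 and *Grin3a* (ENSMUSG00000039579) at chr4:49661611-49845744. The spans run from 18.1 kb for *Grin2c* and 28.0 kb for *Grin1*, through 46.5 kb for *Grin2d* and 184.1 kb for *Grin3a*, to 427.7 kb for *Grin2a* and 460.3 kb for *Grin2b*. Other counted genes overlap *Grin1* (Grin1os), *Grin2b* (Gm14329, Gm14330, Gm26653), *Grin2d* (Gm45441, Kdelr1) and *Grin3a* (Ppp3r2), and whether counting used strand is not given in the sources used here, so reads within these overlaps are of uncertain origin.

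The 2 genes of opposite cell distribution in these data, *Grin1* across neurons and *Grin2c* in astrocytes, are shown with the 250 bases upstream of their annotated start (RefSeq, GRCm38.p6, minus strand, read 5′ to 3′, at chr2:25319188-25319437 and chr11:115267244-115267493). Capitals mark CpG dinucleotides.

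Grin1 upstream: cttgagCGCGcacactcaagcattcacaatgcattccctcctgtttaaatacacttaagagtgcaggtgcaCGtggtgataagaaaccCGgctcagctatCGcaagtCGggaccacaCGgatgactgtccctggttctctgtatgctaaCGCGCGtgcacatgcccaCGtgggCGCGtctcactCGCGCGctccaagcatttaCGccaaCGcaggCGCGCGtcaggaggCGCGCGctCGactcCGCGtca

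Grin2c upstream: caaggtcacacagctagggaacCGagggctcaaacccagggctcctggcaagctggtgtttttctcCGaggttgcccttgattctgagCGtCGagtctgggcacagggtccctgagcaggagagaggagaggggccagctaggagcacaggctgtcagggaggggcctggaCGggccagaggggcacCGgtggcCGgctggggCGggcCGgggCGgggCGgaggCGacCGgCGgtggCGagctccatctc

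The *Grin1* window holds 27 CpG dinucleotides (8.56% of 32851 mouse promoter windows of the same length hold at least as many) at 58.8% G and C, and the *Grin2c* window holds 15 (27.3% of windows hold at least as many) at 68.8%. The motif searched was the letters CG, which read the same on both strands. The *Grin2d* window, at a RefSeq start inside the GENCODE span given above, holds 9, beside a median of 6 over all windows, and *Grin2a*, *Grin2b* and *Grin3a* were not among the sequences used. These are descriptions of the sequence, and no binding or methylation was measured here.

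*Grin1*, the obligatory subunit, was found in every neuron subtype and was low in glia. It stood at 410.1 CPM in PS19 excitatory neurons (23075 UMIs) and 399.3 CPM in PZKO (35596 UMIs), and at 312 and 311 CPM in inhibitory neurons. Among the 6 excitatory subtypes its level spread only 1.18-fold in PS19 and 1.25-fold in PZKO, lowest in CA3-like neurons (379.6 and 356 CPM). Per kilobase of gene span it was the highest member in excitatory neurons, at 14.6 CPM per kb in PS19, against 4.68 for *Grin2a* and 4.75 for *Grin2b*. This order depends on the length used. Per kilobase of summed exons, over all PS19 nuclei kept, *Grin1* was at 29.8 CPM per kb, below *Grin2a* at 70.9 and *Grin2b* at 61.7. Interneurons varied more. The Adarb2 interneuron-like group, which holds Vip, Cck and neurogliaform types, had the lowest *Grin1* of the 10 neuron subtypes, 239.99 CPM in PS19 and 274 CPM in PZKO, while Sst interneuron-like nuclei had 344 and 349 CPM.

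In glia *Grin1* was low, and the level that free RNA leaves in nuclei was not measured. Astrocytes held 15.4 CPM in PS19 and 17.5 CPM in PZKO, below oligodendrocytes (21.6 and 26.0 CPM) and microglia (23.6 and 24.3 CPM), the classes used here to read background. The ratio of astrocytes to oligodendrocytes was 0.713 (0.566 to 0.896) in PS19 and 0.674 (0.558 to 0.813) in PZKO. After thinning every nucleus to 2000 UMIs, 3.34% of PS19 and 3.01% of PZKO astrocytes held a *Grin1* UMI, against 3.86% and 5.22% of oligodendrocytes, while without thinning the shares were 9.60% and 13.9% against 7.22% and 10.6% at median depths of 6894 and 8954.5 against 3333 and 4251 UMIs. Excitatory neurons exceeded astrocytes 26.6-fold in PS19 and 22.8-fold in PZKO. OPCs stood 1.68-fold (1.22 to 2.28) and 1.34-fold (1.03 to 1.73) above oligodendrocytes, at 36.3 and 34.8 CPM, from only 54 and 80 UMIs.

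Between the libraries *Grin1* moved little. The log2 ratio of PZKO over PS19 was −0.04 (−0.06 to −0.01) in excitatory neurons, which turned to 0.04 under TMM scaling and 0.05 under DESeq2 size factors, and 0.00 (−0.06 to 0.06) in inhibitory neurons. Foxp2 and Hs3st4 deep-layer-like neurons had 448 CPM in PS19 and 407 CPM in PZKO (−0.14, −0.21 to −0.07), and CA3-like neurons had a ratio of −0.09 (−0.16 to −0.02). Adarb2 interneuron-like nuclei went the other way at 0.19 (0.07 to 0.32). These intervals lie clear of 0, but none of the values reached 1.5-fold, the size used here to call a difference.

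*Grin2a* and *Grin2b*, which encode the GluN2A and GluN2B partners of forebrain neurons, held most of the GluN2 UMIs of every neuron subtype. In CA1-like neurons *Grin2a* was at 2892 CPM in PS19 and 3111 CPM in PZKO, and *Grin2b* at 3193 and 3142 CPM. Dentate granule-like neurons had 2684 and 3226 CPM of *Grin2a* beside 2405 and 2348 CPM of *Grin2b*, and per kilobase of span their *Grin2a* (6.28 and 7.54 CPM per kb) was above *Grin2b* (5.23 and 5.10 CPM per kb) in both libraries. At the other end, Foxp2 and Hs3st4 deep-layer-like neurons had 1102 and 1206 CPM of *Grin2a*, a 2.62-fold range over the excitatory subtypes in PS19 and 2.67-fold in PZKO. *Grin2b* ranged less, 1.87- and 1.78-fold. CA3-like neurons lay between, with 1793 and 2014 CPM of *Grin2a* and 2105 and 2092 CPM of *Grin2b*.

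**Figure D1:**
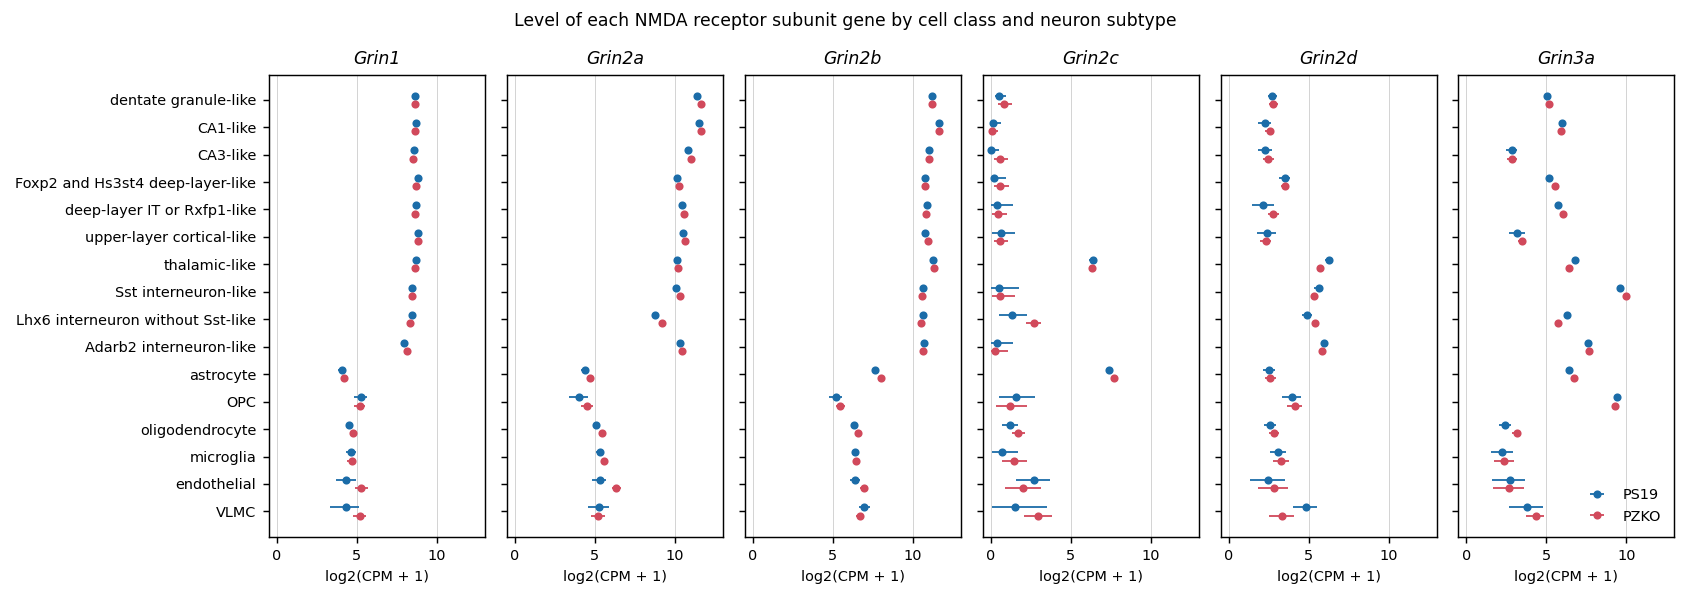
Level of each of the 6 NMDA receptor subunit genes, as log2(CPM + 1), in 16 cell classes and neuron subtypes, with the PS19 library in blue and the PZKO library in red and bars for the 95% Poisson interval. *Grin1*, *Grin2a* and *Grin2b* separate neurons from glia, whereas *Grin2c* peaks in astrocytes at 166 and 205 CPM and *Grin3a* in Sst interneuron-like nuclei and OPCs.

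Most excitatory nuclei held both transcripts. At 2000 UMIs per nucleus, 98.0% of PS19 and 98.8% of PZKO dentate granule-like nuclei and 97.2% and 97.2% of CA1-like nuclei held UMIs of both *Grin2a* and *Grin2b*. Inhibitory neurons were divided, with 94.1% and 92.3% holding a *Grin2b* UMI but 54.9% and 54.9% a *Grin2a* UMI, and 43.0% and 42.3% held *Grin2b* without *Grin2a*.

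Interneuron groups were divided by *Grin2a* far more than by *Grin2b*. The 3 interneuron groups lay within 1.05-fold of each other in *Grin2b* in PS19 and 1.09-fold in PZKO, at 1597 to 1669 CPM and 1447 to 1573 CPM. *Grin2a* ran from 427 and 591 CPM in Lhx6 interneurons without Sst, the group of parvalbumin cells, to 1265 and 1409 CPM in the Adarb2 group. Within the Adarb2 group the contrast was sharper still. The subclusters led by Kit, Ndnf and Egfr (2569 and 2807 CPM) and by Vcan and Hapln1 (2802 and 2917 CPM) lay below CA1-like neurons (2892 and 3111 CPM) but above the other interneuron subclusters, whereas the Vip-led subcluster had 316 and 329 CPM and the Megf10- and Cnr1-led subcluster 408 and 420.2 CPM. In the Lhx6 group the subcluster led by Creb5 held only 101 and 98.7 CPM, beside 673 and 872 CPM in the subcluster led by 6330411D24Rik. The subclusters were found without the NMDA receptor genes, and each of these pairs lay in the same order in both libraries.

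**Figure D2:**
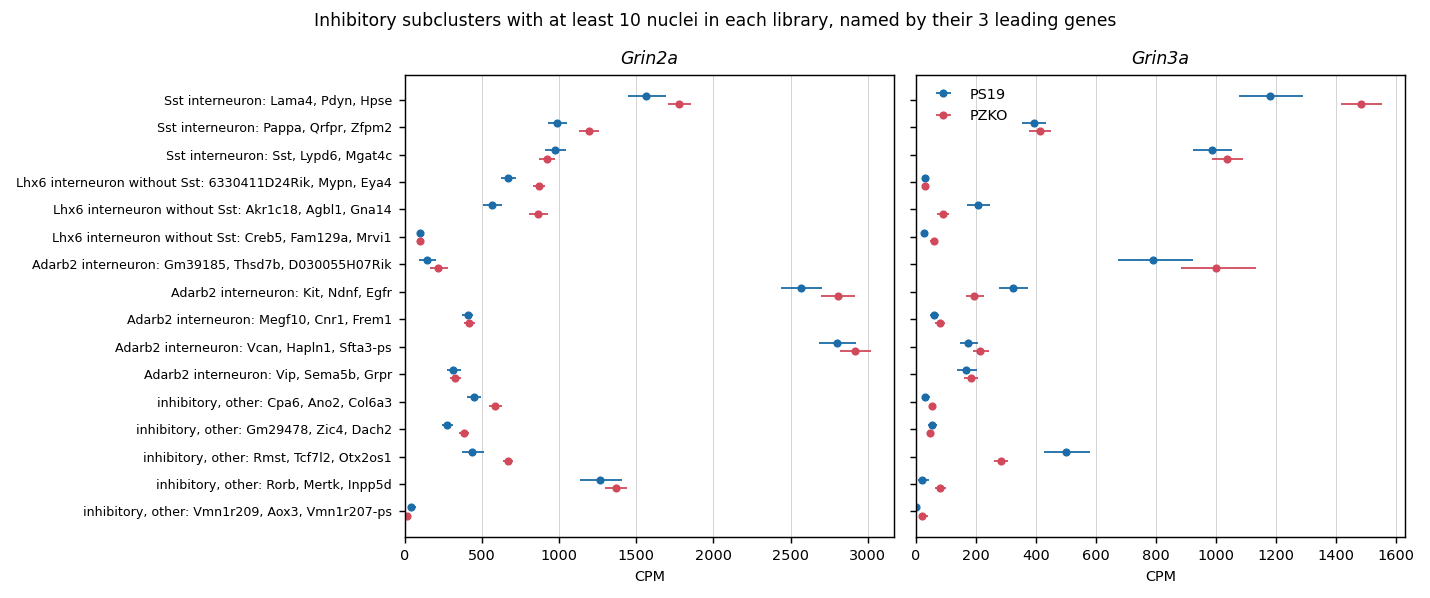
*Grin2a* and *Grin3a* level in CPM in the 16 inhibitory subclusters with at least 10 nuclei in each library, named by their group and 3 leading genes, with the PS19 library in blue and the PZKO library in red and bars for the 95% Poisson interval. *Grin2a* is high in 2 Adarb2 subclusters (2569 to 2917 CPM) and low in the Vip-led subcluster (316 and 329 CPM), and *Grin3a* is highest in the Sst subcluster led by Lama4 (1178 and 1484 CPM).

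The GluN2 mix, the share of each gene among the UMIs of *Grin2a* to *Grin2d*, consisted in neurons mostly of these 2 genes, and thalamic-like neurons were the exception once gene span was taken into account. *Grin2a* took 52.7% of GluN2 UMIs in PS19 dentate granule-like neurons and 57.8% in PZKO, 47.5% and 49.7% in CA1-like neurons, 39.1% and 40.4% in Foxp2 and Hs3st4 deep-layer-like neurons, 39.7% and 44.7% in Sst interneuron-like nuclei and 20.8% and 28.3% in Lhx6 interneurons without Sst. Thalamic-like neurons had the lowest *Grin2a* share of the excitatory-type subtypes, 29.2% and 30.7%, and held the most *Grin2c* of the 10 neuron subtypes. Their *Grin2c* took 2.17% and 2.03% of UMIs, which is 31.9% and 31.6% after division by gene span. At 4.52 and 4.36 CPM per kb of span it exceeded *Grin2a* (2.58 and 2.79 CPM per kb) there. That order depends on the length used, since summed exons are 5.04 kb for *Grin2c* and 17.9 kb for *Grin2a*. Divided by these, the 181 and 348 UMIs of *Grin2c* fall below the 2444 and 5268 UMIs of *Grin2a*.

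**Figure D3:**
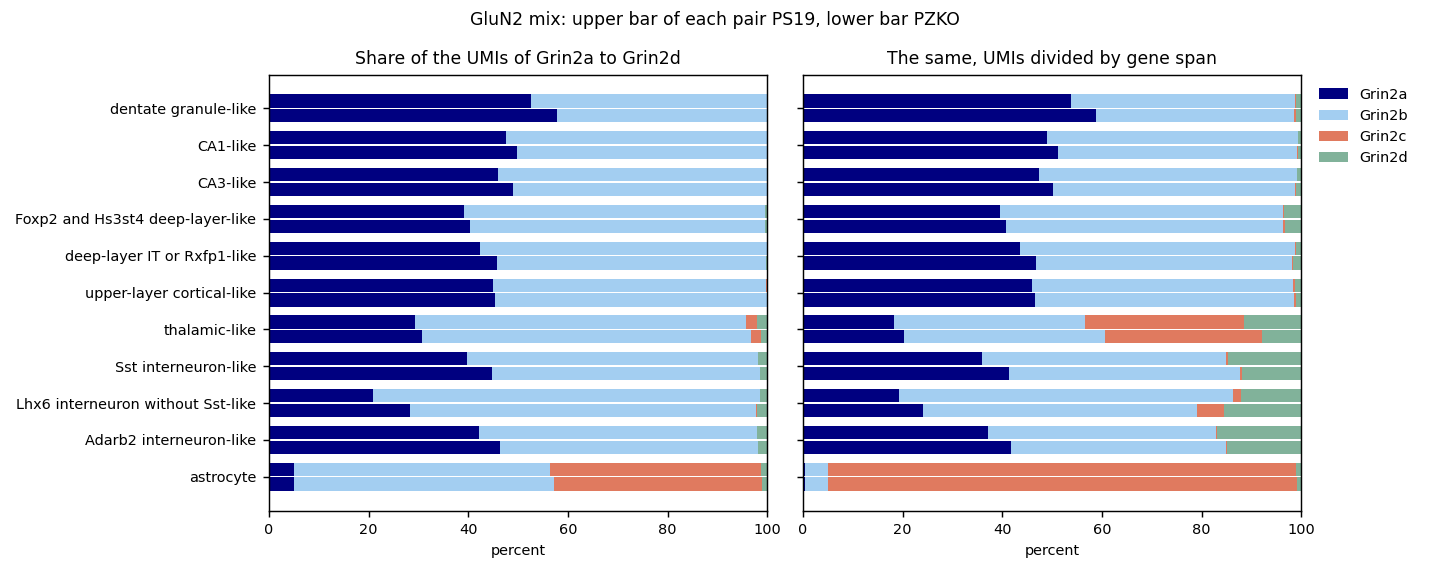
Share of *Grin2a*, *Grin2b*, *Grin2c* and *Grin2d* in percent of the UMIs of all 4 genes (left) and after division by gene span (right) in 10 neuron subtypes and astrocytes, upper bar of each pair PS19 and lower bar PZKO. On the left *Grin2a* and *Grin2b* take nearly all UMIs of neurons, on the right *Grin2c* takes 31.9% and 31.6% in thalamic-like neurons, and in astrocytes *Grin2c* takes 42.3% and 41.8% of UMIs and 94.0% in both libraries per kilobase of span.

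Comparing the genotypes, *Grin2a* was higher in the PZKO library within each of the 10 neuron subtypes, with an interval above 0 in 10 of 10 and log2 ratios from 0.11 to 0.47. No value reached 1.5-fold. In dentate granule-like neurons 41123 UMIs (2684 CPM) in PS19 compared with 35975 UMIs (3226 CPM) in PZKO, for which the log2 ratio was 0.27 (0.24 to 0.29, and 0.20 to 0.36 over the alternatives). The value was 0.11 in CA1-like neurons, 0.17 in CA3-like neurons, 0.18 in upper-layer cortical-like neurons, 0.24 in Sst interneuron-like nuclei and 0.47 (0.37 to 0.57) in Lhx6 interneurons without Sst, where the alternatives gave 0.18 to 0.54. The direction held under every alternative in 8 of the 10 subtypes. Exceptions were Adarb2 interneuron-like nuclei thinned to 2000 UMIs (−0.01), which reached 1.37 with separate clustering of the 2 libraries, and thalamic-like neurons averaged over nuclei (−0.10). Of 4 excitatory clusters that took no subtype name, 3 had an interval above 0 and 1 had an interval below 0 (−0.06). Of 14 inhibitory subclusters with enough UMIs, 12 lay above 0, with an interval above 0 in 8 and below 0 in 0.

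The same gene was not higher in the sum of all excitatory neurons, where it stood at 2000.3 CPM in PS19 and 1969 CPM in PZKO (log2 ratio −0.02, −0.03 to −0.01). Dentate granule-like nuclei, which carry much *Grin2a*, were a smaller part of the PZKO library, and their part in the sum was not tested. With equal weights for the 6 named subtypes the means were 1878 and 2117 CPM and the log2 ratio was 0.17. These means leave out the excitatory neurons of no named subtype, which were 18.2% of the class in PS19 and 29.6% in PZKO. TMM scaling and DESeq2 size factors gave 0.06 for the unweighted sum.

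*Grin2b* did not share this pattern. Its log2 ratio was below 0 in 7 of the 10 subtypes, with an interval below 0 in 4 and above 0 in 2, and the sign held under every alternative in 4 of the 10, the Adarb2 and Lhx6 groups (below 0) and the Foxp2 and upper-layer subtypes (above 0). Dentate granule-like neurons were at −0.03 (−0.06 to −0.01), which became 0.05 under TMM scaling and 0.06 under DESeq2 size factors. Inhibitory neurons held 1712 CPM in PS19 and 1512 CPM in PZKO (−0.18, −0.21 to −0.15), and upper-layer cortical-like neurons stood at 1739 and 1939.9 CPM (0.16, 0.12 to 0.20). The Sst, Adarb2 and Lhx6 groups were at −0.05, −0.09 and −0.14, each smaller in size than the inhibitory class. The class also holds neurons of no named group. Their subcluster led by Rmst, Tcf7l2 and Otx2os1 had 15 PS19 and 58 PZKO nuclei, and that led by 6530403H02Rik and Rgs9 had 23 and 1. The part of these shifts in the class value was not tested.

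The *Grin2a* to *Grin2b* ratio of UMIs, which any scaling of a library leaves as it is, was higher in PZKO in 10 of 10 subtypes, with an interval above 0 in 8. It went from 1.12 to 1.37 in dentate granule-like neurons (log2 change 0.30, 0.27 to 0.33, and 0.27 to 0.31 over the alternatives), from 0.906 to 0.990 in CA1-like neurons and from 0.852 to 0.963 in CA3-like neurons. In Sst interneuron-like nuclei it went from 0.680 to 0.828, in the Adarb2 group from 0.758 to 0.896 and in Lhx6 interneurons without Sst from 0.267 to 0.408 (log2 change 0.61). Upper-layer cortical-like neurons moved least, from 0.819 to 0.829 (0.02, −0.04 to 0.08). The sign turned under at least 1 alternative in the upper-layer cortical-like, thalamic-like, Rxfp1 and Foxp2 deep-layer-like subtypes. It held in the other 6 under every alternative tried.

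**Figure D4:**
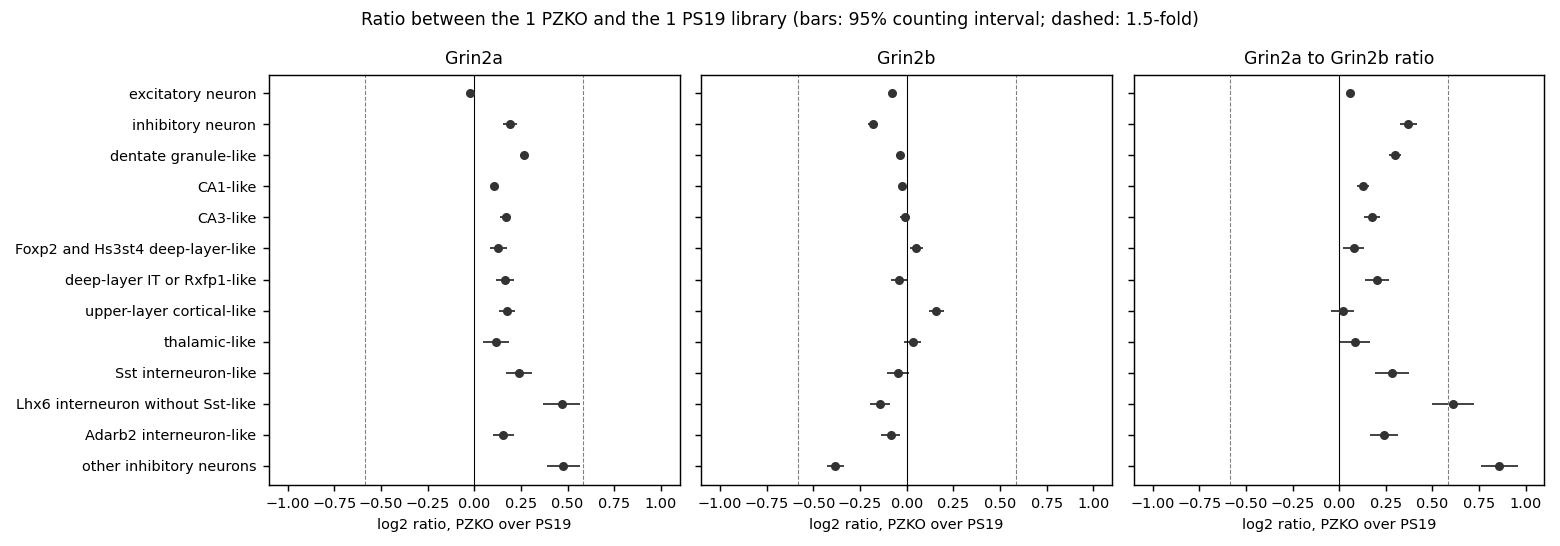
Log2 ratio of PZKO over PS19 for *Grin2a*, *Grin2b* and the *Grin2a* to *Grin2b* ratio in 13 neuron groups, 1 library per genotype, with bars for the 95% counting interval and dashed lines at 1.5-fold. *Grin2a* lies to the right of 0 in all 10 named subtypes (0.11 to 0.47), while the sum over all excitatory neurons lies at −0.02.

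Long genes as a whole moved in the same direction. Genes spanning at least 100 kb took 52.1% of UMIs in PS19 dentate granule-like neurons and 56.0% in PZKO, and their median log2 ratio there was 0.09, against −0.13 for shorter genes. Among those long genes 16.3% had a higher ratio than *Grin2a* in that subtype, and 5.67% of all genes tested did. Mitochondrial UMIs were 0.466% and 0.310% of the UMIs of this subtype. Over the other named subtypes the share of long genes above *Grin2a* ran from 6.83% in Lhx6 interneurons without Sst to 47.6% in CA1-like neurons. It was 44.1% in CA3-like neurons. The median log2 ratio of long genes was 0.10 in CA1-like and 0.14 in CA3-like neurons, close to that of *Grin2a* (0.11 and 0.17). The part of these differences in the *Grin2a* result was not tested.

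*Grin2c*, whose GluN2C product forms receptors with weak magnesium block and is known from cerebellar granule cells and from astrocytes, was the astrocyte member of the family. Astrocytes held 1345 *Grin2c* UMIs in PS19 (166 CPM) and 2271 in PZKO (205 CPM), which was 83.6% and 80.5% of all *Grin2c* UMIs in the nuclei kept. Excitatory neurons held 0.373 and 0.651 CPM, so astrocytes exceeded them 445-fold and 315-fold. Oligodendrocytes, with 12 and 24 UMIs, were at 1.29 and 2.29 CPM (128-fold and 89.4-fold below astrocytes). At 2000 UMIs per nucleus, 27.2% of PS19 and 31.2% of PZKO astrocytes held a *Grin2c* UMI, against 0.184% and 0.383% of oligodendrocytes. The oligodendrocyte share is read here as background. Unthinned shares were 58.8% and 70.3% against 0.388% and 1.06%.

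Per kilobase of gene span *Grin2c* in astrocytes was at 9.19 CPM per kb in PS19 and 11.3 in PZKO, beside 14.6 for *Grin1* in PS19 excitatory neurons. *Grin1* in the astrocytes themselves was at 0.551 and 0.625 CPM per kb. In astrocytes their 9 markers summed to 15710.2 CPM in PS19 and 16797 CPM in PZKO, against 139 and 124 CPM for the excitatory list. The class was named from these markers, so the sums are no separate check of it.

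*Grin2b* was the other GluN2 gene seen in astrocytes, at 202 CPM in PS19 and 255 CPM in PZKO, 2.52-fold and 2.75-fold above oligodendrocytes. At equal depth 30.9% and 33.6% of astrocytes held a *Grin2b* UMI, beside 14.7% and 17.7% of oligodendrocytes and 13.4% and 15.0% of microglia. As an alternative, an ambient profile was subtracted, which was the sum over all nuclei and is dominated by neuronal RNA. It was taken as 19.6993% of astrocyte UMIs in PS19 and 18.9961% in PZKO. The step took *Grin1*, *Grin2a* and *Grin2b* to 0 CPM in astrocytes and oligodendrocytes of both libraries. *Grin2c* in astrocytes was left at 203 and 249 CPM. Over all nuclei kept *Grin2b* was at 1533 and 1554 CPM. Subtracting such a profile can bring a lower level to 0 whatever its origin. How much *Grin2b* astrocytes hold therefore cannot be read from that step. *Grin2a* in astrocytes (19.5 and 24.5 CPM) was below oligodendrocytes (33.2 and 43.2 CPM) and is read as background. *Grin3a* was above background, at 82.8 and 106 CPM against 4.31 and 7.83 CPM.

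Comparing genotypes within astrocytes, *Grin2c* had a log2 ratio of 0.30 (0.21 to 0.40) and 0.25 to 0.39 over the alternatives, below 1.5-fold. None of the 5 members tested in astrocytes was past 1.5-fold, where 7.27% of all genes were, and 6.93% of all genes tested had a higher ratio than *Grin2c*. *Grin2b* (0.34, 0.25 to 0.43) and *Grin3a* (0.36, 0.22 to 0.50) were higher by similar amounts. The share of UMIs from genes of at least 100 kb was 41.1% in PS19 astrocytes and 46.0% in PZKO, and mitochondrial UMIs were 0.848% and 0.555%, and their part in these ratios was not tested.

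Astrocytes fell into 2 clusters with different *Grin2c* levels. The cluster led by Aqp4, Gfap and Gm6145 (958 PS19 and 829 PZKO nuclei) held 148 CPM in PS19 and 172 CPM in PZKO, and the cluster led by Gm12239, Gpc5 and Slc6a11 (125 and 337 nuclei) held 295 and 289 CPM. The first thus had 0.502 (0.440 to 0.573) of the level of the second in PS19 and 0.596 (0.547 to 0.648) in PZKO. Within clusters the PZKO over PS19 log2 ratio was 0.22 (0.10 to 0.33) in the first and −0.03 (−0.22 to 0.16) in the second, and the first cluster took 88.5% of astrocytes in PS19 and 71.1% in PZKO. The border between them was not stable. Other clusterings divided the astrocytes more evenly, for example into 517 and 677 nuclei with 236 and 274 CPM of *Grin2c* and 566 and 489 nuclei with 116 and 132 CPM, and a resolution of 0.5 left a single cluster. In each of the 6 clusterings with more than 1 astrocyte cluster, the cluster with the lowest Gfap had the highest *Grin2c* in both libraries. Gfap is the intermediate filament gene of reactive astrocytes, and clusters of at least 20 nuclei were compared. These clusterings divide largely the same nuclei, so they do not repeat the observation. The clustering with 517 and 677 nuclei allowed the NMDA receptor genes themselves among its variable genes. Over all astrocytes Gfap was at 1149 CPM in PS19 and 821 CPM in PZKO, and its part in the *Grin2c* difference was not tested.

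**Figure D5:**
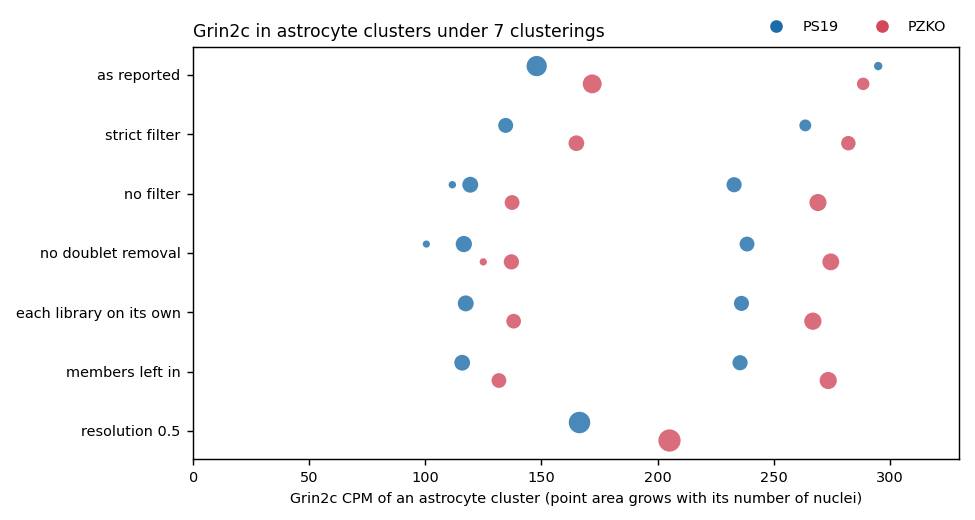
*Grin2c* level in CPM of each astrocyte cluster of at least 20 nuclei in 7 clusterings of the nuclei, with the PS19 library in blue, the PZKO library in red and point area growing with the number of nuclei. In the reported clustering the 2 clusters lie at 148 and 295 CPM in PS19 and 172 and 289 CPM in PZKO, and the clusterings other than that at resolution 0.5 also separate a higher from a lower cluster.

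Outside astrocytes *Grin2c* was found in thalamic-like neurons, with 181 UMIs (81.7 CPM) in PS19 and 348 UMIs (78.9 CPM) in PZKO, which astrocytes exceeded 2.03-fold and 2.60-fold. These neurons had 681 and 599 CPM of summed astrocyte markers, against 15710.2 and 16797 CPM in astrocytes. The 6 excitatory subtypes held at most 0.533 CPM in PS19 and 0.807 CPM in PZKO, and CA3-like neurons had 0 UMIs in PS19, where 3 counts would be 0.363 CPM, and 5 in PZKO. Inhibitory neurons had 24 UMIs (2.11 CPM) in PS19 and 76 UMIs (3.79 CPM) in PZKO. The log2 ratio was 0.85 (0.17 to 1.57, and 0.21 to 1.42 over the alternatives that gave a value). Subtraction of the profile summed over all nuclei gave none, since it left 0 CPM in PS19 and 0.754 CPM in PZKO. That step does not show the origin of these UMIs, since astrocytes hold far more *Grin2c*. *Grin2c* was the 1 of 6 members past 1.5-fold in inhibitory neurons, where 6.69% of all genes were. A subcluster led by Rmst, Tcf7l2 and Otx2os1, with 15 PS19 and 58 PZKO nuclei, and a small subcluster led by Rorb, Mertk and Inpp5d held 18 of the 24 UMIs in PS19 and 43 of the 76 in PZKO. The leading genes of the first include Slc17a6, a marker of excitatory neurons. Those of the second include the microglial marker Inpp5d and the oligodendrocyte markers St18 and Prr5l, and its median was 61689.5 UMIs per nucleus in PZKO. Most *Grin2c* UMIs of the class thus lay in nuclei with markers of other classes. The difference between the libraries was not confined to these nuclei. Lhx6 interneurons without Sst held 4 UMIs (1.52 CPM) in PS19 and 28 (5.47 CPM) in PZKO. The Adarb2 group held 1 in each library, and Sst interneuron-like nuclei 1 and 2. The cause of the difference was not tested.

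*Grin2d*, whose GluN2D product forms slowly closing receptors and is known from interneurons, was an interneuron gene here as well. Inhibitory neurons had 43.6 CPM in PS19 and 44.4 CPM in PZKO, against 5.83 and 6.56 CPM in excitatory neurons, which is 7.47-fold and 6.77-fold. All 3 interneuron groups shared it, with 62.8 and 55.1 CPM in the Adarb2 group, 48.3 and 40.3 CPM in Sst interneuron-like nuclei and 29.2 and 41.4 CPM in Lhx6 interneurons without Sst. Thalamic-like neurons were also high, at 75.4 and 50.8 CPM. Among excitatory subtypes Foxp2 and Hs3st4 deep-layer-like neurons led in both libraries, with 10.5 CPM in each.

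The level of *Grin2d* in inhibitory neurons differed little between the libraries (log2 ratio 0.03, −0.13 to 0.19, with either sign among the alternatives). Lhx6 interneurons without Sst had a ratio of 0.50 (0.12 to 0.90, and 0.32 to 2.21 over the alternatives). Thalamic-like neurons had one of −0.57 (−0.87 to −0.27), from 167 UMIs in PS19 and 224 in PZKO. The thalamic-like value turned above 0 when nuclei were thinned to 2000 UMIs, so no direction is given for it.

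*Grin3a*, the glycine-binding member, was unevenly distributed in neurons. Sst interneuron-like nuclei held 763 CPM in PS19 (1751 UMIs) and 1000.4 CPM in PZKO (3849 UMIs), which was 9.85-fold and 19.2-fold above Lhx6 interneurons without Sst (77.4 and 52.1 CPM). Over the 10 neuron subtypes the range was 124-fold in PS19 and 163-fold in PZKO, down to 6.17 and 6.12 CPM in CA3-like neurons. That CA3-like level came from only 51 and 64 UMIs, of which the nucleus with the most held 13 and 14. It was near the oligodendrocyte level (4.31 and 7.83 CPM), which is read here as background. The size of any fold taken over the CA3-like level is therefore uncertain. Within the Sst group the subcluster led by Lama4, Pdyn and Hpse held 1178 and 1484 CPM, that led by Sst and Lypd6 987 and 1038 CPM, and that led by Pappa and Qrfpr 393 and 412 CPM. A small Adarb2 subcluster led by Gm39185 and Thsd7b, with 13 and 12 nuclei, was also high at 790.4 and 1001 CPM. Among excitatory subtypes CA1-like neurons led in PS19 with 63.2 CPM, 10.2-fold the CA3-like level, and deep-layer IT or Rxfp1-like neurons led in PZKO with 64.3 CPM.

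OPCs came close to the Sst group in *Grin3a*, which exceeded them 1.14-fold (1.06 to 1.24) in PS19 and 1.62-fold (1.52 to 1.72) in PZKO. OPCs held 666 CPM in PS19 (990 UMIs) and 617 CPM in PZKO (1418 UMIs), 155-fold and 78.8-fold above oligodendrocytes, the cells they give rise to. At 2000 UMIs per nucleus 69.5% of PS19 and 64.1% of PZKO OPCs held a *Grin3a* UMI, against 0.873% and 1.87% of oligodendrocytes (90.1% and 92.9% against 1.36% and 3.15% unthinned). OPCs carried little *Grin2a* (14.8 and 21.8 CPM) and *Grin2b* (35.0 and 43.1 CPM), both below the oligodendrocyte levels. Their *Grin2d* was at 14.8 and 16.5 CPM, from only 22 and 38 UMIs, above astrocytes, oligodendrocytes and microglia. Per kilobase of span, OPC *Grin3a* was at 3.62 and 3.35 CPM per kb, and OPC *Grin1* at 1.30 and 1.24. Subtraction of the profile summed over all nuclei took OPC *Grin1* to 0 CPM in both libraries and left *Grin2d* at 15.3 and 17.0 CPM. The 0 for *Grin1* does not show its origin, since neurons hold far more *Grin1*.

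Between genotypes *Grin3a* was higher in PZKO Sst interneuron-like nuclei (log2 ratio 0.39, 0.31 to 0.47, and 0.28 to 0.72 over the alternatives). None of the 5 members tested there passed 1.5-fold, beside 7.36% of all genes. In the subclusters of this group the ratio was 0.33 in that led by Lama4, Pdyn and Hpse, with 19 PS19 and 43 PZKO nuclei, and 0.07 in each of the other 2. OPCs were at −0.11 (−0.23 to 0.01), with either sign among the alternatives and with none of 3 members past 1.5-fold beside 8.79% of all genes. Lhx6 interneurons without Sst had a ratio of −0.57 (−0.84 to −0.30), which became 0.10 with separate clustering of the libraries. It became −0.42 when the nucleus with the most UMIs was left out of each library. That nucleus held 40 of 204 UMIs in PS19 and 28 of 267 in PZKO. In oligodendrocytes *Grin3a* passed 1.5-fold at a ratio of 0.86 (0.30 to 1.45), from only 40 and 82 UMIs. It was the 1 of 5 members to do so where 6.34% of all genes did. Subtraction of the profile summed over all nuclei took this level to 0, which does not show its origin, since other classes hold far more *Grin3a*.

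Read over all 23 classes and subtypes, which overlap, 90 values of the members had at least 100 UMIs and 6 of them were past 1.5-fold. No member passed in excitatory neurons (5 tested, 7.49% of all genes past the fold) or in dentate granule-like (5.42%), CA1-like (4.27%), CA3-like (5.20%), Foxp2 and Hs3st4 deep-layer-like (4.50%), deep-layer IT or Rxfp1-like (5.02%), upper-layer cortical-like (6.89%) or thalamic-like neurons (6.35%), or in excitatory neurons of no subtype (4.97%). None passed in the Adarb2 (5.79%) or Lhx6 (5.80%) interneuron group, or microglia (6.02%), and the 1 member with enough UMIs in vascular leptomeningeal cells did not pass either (13.9%). In choroid plexus (6.46%) and ependymal cells (7.95%) no member had enough UMIs, so none was examined. In excitatory neurons 33.2% of the 1182 genes past 1.5-fold were higher in PZKO, and 51.8% of 1098 under TMM scaling. Beside *Grin2c* in inhibitory neurons and *Grin3a* in oligodendrocytes, the values past the fold were *Grin3a* in inhibitory neurons of no named group, *Grin2a* in endothelial nuclei and both *Grin2a* and *Grin2b* in pericytes or mural cells. The inhibitory neurons of no named group, at 81.3 and 135 CPM of *Grin3a* (12.5% of all genes past the fold), include the subcluster led by Rmst, Tcf7l2 and Otx2os1, which held 499.5 CPM in PS19 and 282 in PZKO from 15 and 58 nuclei. Endothelial nuclei had 38.3 and 79.3 CPM of *Grin2a* (5.21% of all genes past the fold), beside 33.2 and 43.2 CPM in oligodendrocytes. In pericytes or mural cells *Grin2a* was at 340.1 and 68.4 CPM and *Grin2b* at 458 and 113 CPM. In this class 17.7% of all genes were past the fold. Of the PS19 library 1 nucleus held 44 of 130 *Grin2a* UMIs and another held 58 of 175 *Grin2b* UMIs. These nuclei had 18200 and 33199 UMIs in all, beside a class median of 2517. Without the nucleus in question the PS19 level was 236 CPM for *Grin2a* and 335 CPM for *Grin2b*.

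The wider NMDA receptor pathway was followed with a list of 31 scaffolds, partners, kinases, effectors and co-agonist genes. In excitatory neurons 28 were tested and 1 passed 1.5-fold (7.49% of all genes did), Phgdh, the first enzyme of serine synthesis, at 2.59 CPM in PS19 and 1.20 in PZKO. Their median log2 ratio was −0.06 beside −0.08 over all genes. In dentate granule-like neurons 27 were tested and none passed (5.42% of all genes did), with a median of 0.03 beside −0.09. Of the 27, 16 were above 0, and the share of all genes above 0 was not counted. Above 0 were 8 of 9 kinases and phosphatases (median 0.06), 4 of 5 partners (0.10) and 2 of 4 scaffolds (0.02). For the effectors it was 2 of 4 (−0.05) and for the co-agonist genes 0 of 5 (−0.32). Dlg3 and Rasgrf2, given next, lay above the medians of the scaffolds and the effectors. Dlg3, which encodes the scaffold SAP102, stood there at 45.8 CPM in PS19 and 55.2 in PZKO (0.27), Rasgrf2, a calcium-dependent Ras activator, at 239 and 289 CPM (0.27), and Camk2a, the kinase that binds GluN2B, at 1396 and 1511 CPM (0.11). Srr, the racemase that makes D-serine, was at 133 and 119.6 CPM (−0.16). In astrocytes 25 were tested and 1 passed (7.27% of all genes did), Ptk2b, a calcium-sensitive tyrosine kinase, at 14.8 CPM in PS19 and 9.57 in PZKO, with a median of 0.00 beside −0.06. Slc7a10, the astrocyte transporter of the co-agonists D-serine and glycine, was at 185 and 213 CPM (0.20). In OPCs 23 were tested and 2 passed (8.79% of all genes did). Fyn, a kinase that phosphorylates GluN2B and acts in myelination, passed at 373 and 857 CPM (1.20). The 9 oligodendrocyte markers, all detected, summed to 643 CPM in PS19 OPCs and 1522 CPM in PZKO OPCs, and their part in the Fyn difference was not tested. Also past the fold, in the other direction, was Rasgrf2 at 36.3 and 23.5 CPM.

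For each member the genes of most similar level across 19 classes and subtypes were found by Pearson correlation of log2(CPM + 1) among 13007 genes. These points share 2 libraries and a common depth and base composition, and the values are given as a description. *Grin1* was followed most closely by Trank1 (r of 0.977 in PS19 and 0.985 in PZKO), Snap25 and Unc13a. *Grin2a* was followed by Rbfox3 (0.976 and 0.978), Rasgef1a and *Grin2b*, and *Grin2b* by C78859, *Grin2a* and *Grin1*. *Grin2c* had weaker neighbours, Paqr8 (0.819 and 0.805), Gm12239 and Acsl3. *Grin2d* was nearest to Vwc2 (0.911 and 0.904), Nxph1 and Kcnmb2, and *Grin3a* to C130073E24Rik (0.856 and 0.840), Gm45323 and Plxna3.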

How the data were processed

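Nuclear RNA of pooled hippocampi was counted as UMIs per gene and nucleus by the authors with Cell Ranger on mm10, and the counts were deposited as whole numbers without normalization. The version is 7.0.1 in the submitters' processing notes and 8.0.1 in the file header. The SoupX, nucleus-filter and DoubletFinder steps of the study are not applied in the deposited counts, so free RNA and doublets can add neuronal UMIs to glia. No column of another sample was present (0).

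Nuclei with at least 600 UMIs, 300 genes and at most 5% mitochondrial UMIs were kept, and the highest Scrublet scores were removed at 0.8% per 1000 nuclei with scanpy 1.11.5 (Python 3.11.15). Both libraries were clustered together with leidenalg 0.10.2 at resolution 1 from 2000 variable genes, without the members and pathway genes, 30 components and 20 neighbours. Clusters were named from marker lists, with thresholds set after the clusters had been seen. Unnamed clusters held 5.60% of PS19 and 5.16% of PZKO nuclei.

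UMIs were summed per class and scaled to CPM. With 1 library per genotype no edgeR or DESeq2 test could be run, and genes with 100 or more UMIs in the 2 libraries together were called past 1.5-fold. Levels have exact Poisson, shares exact binomial (Clopper-Pearson) and ratios exact conditional binomial 95% intervals, and the Grin2a to Grin2b ratio a normal interval on the log odds at high counts. All cover counting error only. A count of 0 allows up to 3 counts. Gene positions came from GENCODE M21 (32235 of 32285 genes matched), and upstream sequences from a table of RefSeq promoters, in which 3 of the 6 members were matched.

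The genes named are the 6 members, members of the 31-gene pathway list where the list is described, Zbp1, the 3 most similar genes of each member among those with at least 1000 UMIs, and leading genes of clusters. Gfap and single subclusters were picked out after their values were seen. The members and lists were chosen with earlier results of these data known. Alternatives were scaling by edgeR 4.0.16 TMM or DESeq2 1.42.0 size factors (R 4.3.3), means over nuclei, other filters, clusterings and minimum counts, ambient subtraction, thinning to 2000 UMIs, equal subtype weights and shares per kilobase. After seeing the data, nuclei with a barcode of both libraries, and the nucleus with the most UMIs of a gene, were also left out. The calculations were tested on simulated data. The leading genes of 1 excitatory cluster are not reported here.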

Additional observations from a re-analysis of the deposited data

Results flagged for a closer look

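The results below were picked out because the same gene went in opposite directions in different cell types, each with a counting interval clear of 0 and a sign kept in every alternative that gave a value. The differences between cell types were not tested.

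For Grin1, the log2 ratio of PZKO over PS19 was 0.19 in Adarb2 interneuron-like nuclei (0.18 to 0.38 over the alternatives), and below 0 in CA3-like neurons, at −0.0906 (−0.10 to −0.05), and in Foxp2 and Hs3st4 deep-layer-like neurons, at −0.14 (−0.15 to −0.01).

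For Grin2b, the ratio was above 0 in astrocytes, at 0.34 (0.11 to 0.43, with no value under ambient subtraction, which left 0 UMIs), in upper-layer cortical-like neurons, at 0.16 (0.15 to 0.21), and in Foxp2 and Hs3st4 deep-layer-like neurons, at 0.0508 (0.05 to 0.14). It was below 0 in inhibitory neurons, at −0.18 (−0.22 to −0.10), in Lhx6 interneurons without Sst, at −0.14 (−0.17 to −0.05), and in Adarb2 interneuron-like nuclei, at −0.0857 (−0.15 to −0.01). The inhibitory class also holds neurons of no named group, whose subclusters differed in number of nuclei between the libraries. The part of this in the class value was not tested.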

How the results depend on the processing

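The log2 ratio of Grin2c in astrocytes kept its sign and stayed within its interval in all alternatives that gave a value. In dentate granule-like neurons the Grin2a ratio (0.27) moved to 0.35 with TMM scaling, 0.36 with DESeq2 size factors and 0.20 after thinning to 2000 UMIs, and the Grin2b ratio (−0.0348) to 0.0495, 0.0608 and −0.0634. The Grin2a share of GluN2 UMIs in excitatory neurons, 0.99 percentage points higher in PZKO, became 0.70 with the stricter filter and 0.0101 after thinning. It was 2.81 with equal weights for the 6 named subtypes, which leaves out the excitatory neurons of no named subtype. The 1182 genes past 1.5-fold in excitatory neurons became 682 after thinning, 2659 with at least 20 UMIs and 5616 with no minimum, where fewer or more genes were tested or had few UMIs. Otherwise the cause was not tested. Of 93 log2 results, 54 had an interval clear of 0, of which 36 kept their sign in every alternative and 18 did not. Of 1152 values under 18 alternatives, 965 lay within the counting interval of the reported value (counts of genes, within 1.5-fold) and 187 outside it. No log2 result past 1.5-fold among them changed sign. Values below that size did, for example Grin2d in thalamic-like neurons, from −0.57 to 1.4954 after thinning. Not among these results were Grin2a in endothelial nuclei, Grin2a and Grin2b in pericytes or mural cells and Grin3a in inhibitory neurons of no named group.

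No paired analysis was possible because each genotype has 1 library, and for the same reason no library was left out in turn. Depth limits Grin2c outside astrocytes, Grin2d in all classes and all members in vascular classes.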

Other observations

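Some small populations stood apart in their GluN2 mix. An unnamed cluster led by D130079A08Rik, D130009I18Rik and Syt9, with 30 PS19 and 28 PZKO nuclei, had a Grin2a to Grin2b ratio of 3.67 in PS19 and 4.24 in PZKO, above every named neuron subtype, and 369 and 424 CPM of Grin3a. Cajal-Retzius nuclei held 317 and 448 CPM of Grin2b. Most lay in the cluster led by Ebf2, Ebf3 and Postn (508.99 and 572 CPM), with 13 PS19 and 25 PZKO nuclei. The cluster led by Ndnf, Reln and Trp73, with 28 and 30 nuclei, held only 15 and 20 Grin2b UMIs of 152394 and 230171. In that cluster 7 Cajal-Retzius markers were found in at least 10% of nuclei, against 5 in the Ebf2-led cluster. The Grin2b level is therefore not given as a trait of the whole class. Of the 404 Grin2b UMIs of the class in PZKO, 1 nucleus held 68. These values rest on few nuclei and have no replicate check.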
